A study of Mus musculus with 8 samples.

Results

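The 4 genes Cx3cl1, Adam10, Adam17 and Cxcl12, which encode 2 chemokines and the proteases that release the first of them, were followed through all libraries of the study. They were found by gene symbol, and they are 4 of the 54146 genes in the deposited tables. Cx3cl1 was selected because its induction by TNF-α was smaller, and its basal level higher, in GSTM1 KD astrocytes, so its differences between these groups are given as a description, with no test. The other 3 genes were taken as partners of the same biology.

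The cells were primary astrocytes from the cortex of neonatal C57BL/6 mouse pups. All 4 groups carried a pLKO-puro lentivirus and had been selected with puromycin, shaken and depleted of CD11b+ cells. The groups labelled shControl (control KD) expressed a non-silencing shRNA, and the groups labelled shGstm1 (GSTM1 KD) an shRNA against Gstm1, each without stimulation (basal) or stimulated for 6 h with TNF-α at 50 ng/ml. Each of the 4 groups had 2 libraries, described as biological replicates, and whether they came from separate cultures or litters is not stated, so p-values measure the spread between these libraries.

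The libraries held 17349682 to 34434615 counts, and 19371 to 21557 genes had a count in a library. Gstm1, the shRNA target, differed between GSTM1 KD and control KD by -3.33 on the log2 scale (SE 0.239, adjusted p = 0.0132) in unstimulated cells and by -3.68 (SE 0.288, adjusted p = 0.00981) after TNF-α. Astrocyte markers were abundant in every library: the summed level of 9 markers ran from 2916 to 8887 CPM (counts scaled to a common library total). Within each group replicate 2 had the higher sum. Microglial markers summed to 45.3 to 54.0 CPM and endothelial markers to 9.14 to 25.4 CPM, among which Cldn5 was at 0 in every library, Flt1 had 112 to 408 counts and Cdh5 17 to 218 counts. In these bulk samples, fewer cells of a type and less RNA per cell cannot be told apart.

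CX3CL1, or fractalkine, is a chemokine that is made as a membrane protein, with its chemokine domain carried on a mucin-like stalk. The proteases ADAM10 and ADAM17 cut the stalk and release the soluble chemokine. In the brain its receptor, CX3CR1, is found mainly on microglia. CXCL12 is a secreted chemokine that signals through CXCR4, while ACKR3 binds and removes it, and astrocytes are among its known sources.

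The DNA before each start site is shown so that the genes can be compared at the region where transcription begins. The RefSeq promoter table (GRCm38.p6) held 1 entry for each of the 4 genes, and the sequences run 5′ to 3′ on the strand of the gene. For Cx3cl1 the 30 bases around the RefSeq start are given (chr8:94772162-94772191, plus strand), with TATAAAA in capitals, in a stretch that lies within the GENCODE gene. For the other 3 genes the 130 bases before the start are given: Adam10 at chr9:70678852-70678981 (plus strand), Adam17 at chr12:21373633-21373762 (minus strand) and Cxcl12 at chr6:117168405-117168534 (plus strand). In these, capitals mark GGGCGG on either strand (a GC box) and, in Adam10, CACGTG.
Cx3cl1: ctgccagcccatTATAAAAagcaaccgaga
Adam10: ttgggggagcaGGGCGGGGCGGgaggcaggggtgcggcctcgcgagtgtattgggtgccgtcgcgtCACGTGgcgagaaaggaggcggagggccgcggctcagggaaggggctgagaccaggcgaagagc
Adam17: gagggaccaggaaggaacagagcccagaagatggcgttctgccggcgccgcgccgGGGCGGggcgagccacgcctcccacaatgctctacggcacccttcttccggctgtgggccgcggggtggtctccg
Cxcl12: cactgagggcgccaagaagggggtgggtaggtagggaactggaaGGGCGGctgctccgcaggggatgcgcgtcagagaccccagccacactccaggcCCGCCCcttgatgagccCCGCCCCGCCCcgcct

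Over the whole 300-base windows, GGGCGG was present in all 4 genes, with 5 matches in Cxcl12, 3 in Adam10 and 1 each in Cx3cl1 and Adam17. Some of these matches share 1 base with the next. The same letters were found on either strand in 35.7% of 32851 promoter windows. TATAAAA was present in 1 of the 4 genes, Cx3cl1, beginning 6 bases before its RefSeq start, and in 5.48% of all windows. CACGTG, which reads the same on both strands, was present only in Adam10 among the 4 and in 7.15% of all windows. TGANTCA (the AP-1 motif, 7.81% of windows) and the NF-κB consensus (8.46%) had no match in the 4 windows. A match describes the letters in the window and was not tested against the expression data.

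In the gene annotation (GENCODE on GRCm38), Cx3cl1 (ENSMUSG00000031778.13) lies at chr8:94772009-94782427 on the plus strand and Adam10 (ENSMUSG00000054693.14) at chr9:70678997-70780229 on the plus strand. Cxcl12 (ENSMUSG00000061353.11) lies at chr6:117168535-117181367 on the plus strand. Adam17 (ENSMUSG00000052593.16) lies at chr12:21323509-21373632 on the minus strand and shares 311 bases with Iah1 on the opposite strand. It also shares 99 bases with the small nuclear RNA gene Gm22766. The strand setting of the counting is not given in the sources used here, so reads in these stretches are uncertain.

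Cx3cl1, the fractalkine gene, was higher after TNF-α in both knockdowns, 5.57-fold under control KD and 2.94-fold in GSTM1 KD. Its basal level was 1.63-fold higher in GSTM1 KD and its stimulated level 1.18-fold lower. Levels are CPM with library totals adjusted by the TMM factors of edgeR. In unstimulated cells the control KD libraries had 138 and 147 CPM and the GSTM1 KD libraries 218 and 248 CPM. After TNF-α the control KD libraries had 776 and 815 CPM and the GSTM1 KD libraries 666 and 706 CPM. The order was therefore control basal, GSTM1 KD basal, GSTM1 KD stimulated and control stimulated, and no neighbouring groups overlapped. The group means were 143 ± 6.09, 233 ± 21.6, 686 ± 28.6 and 796 ± 28.0 CPM in that order (SD, n = 2). Over all genes tested the knockdowns did not overlap for 63.5% in unstimulated cells and 66.6% after TNF-α. The basal and stimulated GSTM1 KD libraries did not overlap for 44.5%.

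**Figure D1:**
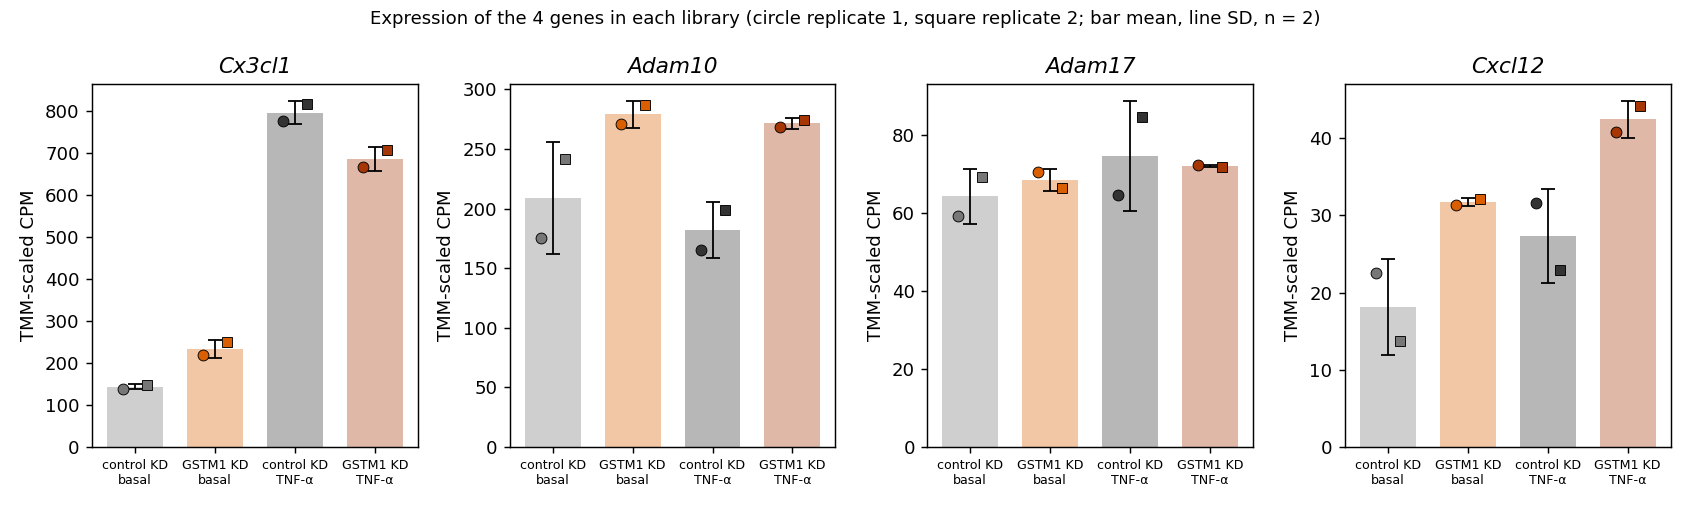
Levels of Cx3cl1, Adam10, Adam17 and Cxcl12 in TMM-scaled CPM (y axes, from 0) in the 4 groups. Bars are group means, lines the SD, circles replicate 1 and squares replicate 2 (n = 2). The Cx3cl1 mean is 143 CPM before and 796 CPM after TNF-α in control KD, against 233 and 686 CPM in GSTM1 KD, while Adam17 lies between 59.3 and 84.7 CPM in all 8 libraries.

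The fitted log2 fold change of Cx3cl1 between GSTM1 KD and control KD was 0.71 (SE 0.119) in unstimulated cells and -0.24 (SE 0.111) after TNF-α. The 95% intervals of the fit ran from 0.41 to 1.00 and from -0.52 to 0.04. They take no account of the selection of the gene, so neither is read against 0. The log2 response to TNF-α was 2.48 (SE 0.101) under control KD and 1.56 (SE 0.101) in GSTM1 KD, a difference of -0.92 (SE 0.143). In CPM the increase was 653 under control KD and 453 in GSTM1 KD. These values are those on which the gene was selected. Leaving out each library in turn moved the difference of the log2 responses between -1.01 and -0.83.

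Compared per transcript length, in TPM (the abundance that RSEM scales by length), Cx3cl1 and Adam10 were at about the same level before stimulation. The Cx3cl1 TPM was 77.2 and 82.9 under control KD and 128 and 146 in GSTM1 KD, and the Adam10 TPM was 68.9 and 97.0 under control KD, against 112 and 118 in GSTM1 KD. The ratio of Cx3cl1 to Adam10 TPM was 1.12 and 0.855 in the basal control KD libraries and 1.14 and 1.24 in the basal GSTM1 KD libraries. After TNF-α it was 6.81 and 5.89 in control KD but 3.54 and 3.70 in GSTM1 KD. The knockdowns did not overlap in either state, with the higher ratios in GSTM1 KD before and in control KD after TNF-α. The ratio combines a lower Cx3cl1 and a higher Adam10 in stimulated GSTM1 KD, and it uses the values that selected Cx3cl1. On the same scale Adam17 (25.0 to 34.7 TPM over the 8 libraries) and Cxcl12 (12.1 to 41.4 TPM) were below Cx3cl1 and Adam10 in every library.

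Adam10, which encodes the protease that sheds fractalkine without stimulation, was higher in GSTM1 KD than in control KD after TNF-α. The stimulated control KD libraries had 166 and 199 CPM and the stimulated GSTM1 KD libraries 268 and 274 CPM. The fitted difference was 0.55 on the log2 scale (SE 0.120, 1.46-fold, edgeR adjusted p = 0.0388). Of 14593 genes tested in this comparison, 16.2% passed the threshold of 0.05 on the adjusted p-value, 7.26% being higher and 8.92% lower in GSTM1 KD, and 1 of the 3 partner genes was among them. The Adam10 call was lost without GSTM1 KD replicate 1 (0.58, adjusted p = 0.183) or replicate 2 (0.54, adjusted p = 0.256), with the estimate little changed.

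In unstimulated cells Adam10 had 176 and 242 CPM under control KD and 271 and 287 CPM in GSTM1 KD. The groups did not overlap, but the lower control library stood further from its replicate than that replicate stood from GSTM1 KD. The difference was 0.42 (SE 0.173, adjusted p = 0.166) and did not pass the threshold, with a 95% interval from -0.01 to 0.85. With a block for the replicate number, which no source ties to a shared culture, the difference passed. It passed without basal control KD replicate 2 (0.66, adjusted p = 0.00305). The 2 control KD libraries also differed in the summed astrocyte markers, at 2916 and 6702 CPM, against 5887 and 8887 CPM in the GSTM1 KD libraries, and the part of this in the Adam10 values was not tested.

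The TNF-α response of Adam10 did not pass in either knockdown. It was -0.20 (SE 0.161, adjusted p = 0.797) in control KD, where 2.63% of 15332 genes passed the threshold (2.1% higher, 0.528% lower). In GSTM1 KD it was -0.04 (SE 0.161), with a 95% interval from -0.42 to 0.34, where 2.65% of the same genes passed (2.35% higher, 0.294% lower). None of the 3 partner genes passed in either response, and the only unadjusted p under 0.05 among them was that of Cxcl12 in control KD (0.0439). By edgeR 0 of 15332 genes passed for the difference between the responses, 295 had an unadjusted p under 0.05, and DESeq2 called 27.

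Adam17, which encodes the protease named for releasing TNF-α and which sheds fractalkine on stimulation, differed between no groups by an amount past the threshold. The basal libraries had 59.3 and 69.3 CPM under control KD and 70.6 and 66.4 CPM in GSTM1 KD, and these overlapped. After TNF-α they had 64.6 and 84.7 CPM under control KD and 72.2 and 71.8 CPM in GSTM1 KD, also overlapping. The difference between knockdowns was 0.09 (SE 0.117, adjusted p = 0.626) in unstimulated cells, with a 95% interval from -0.20 to 0.38. After TNF-α it was -0.07 (SE 0.142, adjusted p = 0.742), with an interval from -0.43 to 0.28. The TNF-α response was 0.21 (SE 0.139, adjusted p = 0.690) under control KD and 0.07 (SE 0.140, 95% interval -0.26 to 0.40) in GSTM1 KD. The difference of the responses was -0.14 (SE 0.197), with an interval from -0.61 to 0.32. These intervals do not show that the levels were equal. A change of 0.55 in either direction, as seen for Adam10, lies outside those of the knockdown differences and of the responses, but -0.55 lies inside that of the difference of the responses.

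**Figure D2:**
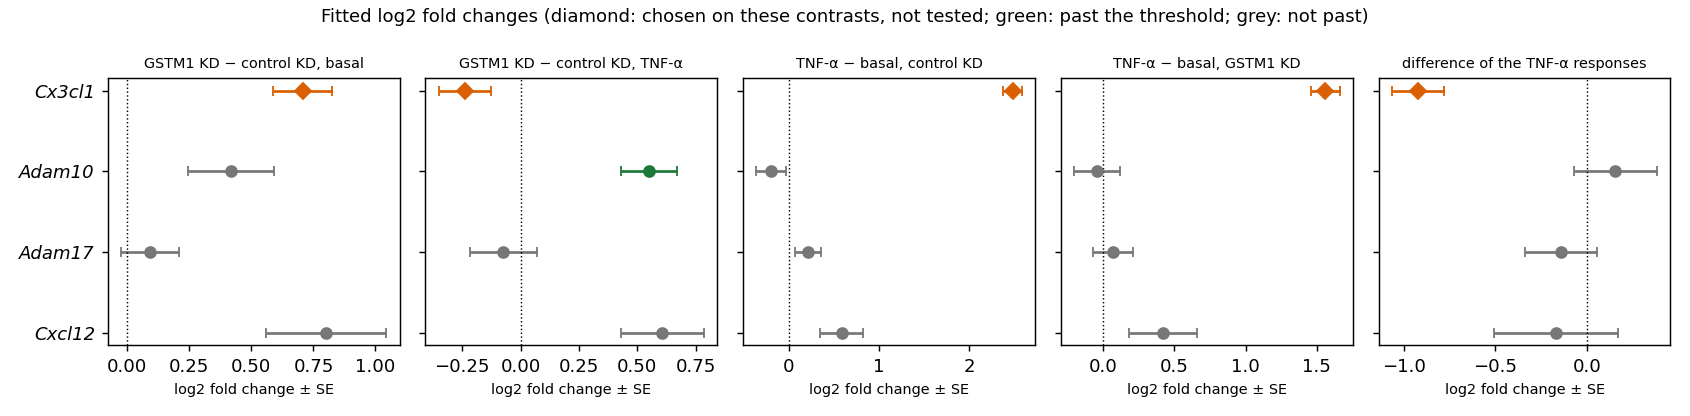
Fitted log2 fold changes (x axes, which differ in range between panels) with their standard errors for the 4 genes in the 5 comparisons. The diamond is Cx3cl1, selected on these contrasts and not tested, and green marks the only tested value past the threshold, Adam10 at 0.55 after TNF-α. Adam17 stays between -0.14 and 0.21 in all 5 panels.

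Cxcl12, the gene of the secreted chemokine, had higher levels in the GSTM1 KD libraries than in the control KD libraries in both states. It did not pass the threshold in the fit without a replicate block. With a block for the replicate number, which no source ties to a shared culture, Cxcl12 passed in both states. In unstimulated cells control KD had 22.5 and 13.8 CPM and GSTM1 KD 31.4 and 32.1 CPM. After TNF-α control KD had 31.6 and 23.0 CPM and GSTM1 KD 40.8 and 44.2 CPM. The spread was larger in control KD, where replicate 1 was higher in both states. The difference was 0.80 (SE 0.242, 1.74-fold, adjusted p = 0.0906) in unstimulated cells and 0.61 (SE 0.178, 1.52-fold, adjusted p = 0.0719) after TNF-α. In unstimulated cells 10.2% of 14899 genes passed (4.6% higher, 5.62% lower), and none of the 3 partner genes did by edgeR without the block. The unadjusted p of Cxcl12 was 0.0178 there, and DESeq2 gave it an adjusted p of 0.0223 in unstimulated cells and of 0.0341 after TNF-α.

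Of the 3 partner genes, Adam10 and Cxcl12 had no overlap between GSTM1 KD and control KD in either state. Over all genes tested the groups did not overlap for 63.5% in unstimulated cells and 66.6% after TNF-α, a share close to 2 of 3. For Cxcl12 the call depended on the libraries used. It passed without basal control KD replicate 1 (1.20, adjusted p = 0.00417) or replicate 2 (0.49, adjusted p = 0.0261), and without stimulated control KD replicate 1 (0.87, adjusted p = 0.00659) or replicate 2 (0.40, adjusted p = 0.0395). Those fits called 2185, 5256, 2703 and 5028 genes in that order. It did not pass without either basal GSTM1 KD library (0.82 and 0.78, adjusted p = 0.247 and 0.359) or either stimulated one (0.68 and 0.56, adjusted p = 0.197 and 0.328), where 1, 3, 0 and 94 genes were called.

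Cxcl12 libraries after TNF-α were above the basal ones in both knockdowns, with no overlap, as for 34.5% of all genes tested under control KD and 44.5% in GSTM1 KD. The response was 0.59 (SE 0.241, adjusted p = 0.374) under control KD and 0.42 (SE 0.237, adjusted p = 0.677) in GSTM1 KD, and neither passed. The difference of the responses was -0.17 (SE 0.338), with a 95% interval from -0.96 to 0.63, so responses of Cxcl12 that differ by the amount seen for Cx3cl1 are within the interval.

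The Cxcl12 transcripts differed in length between the groups. The deposited tables give, for each gene and library, the mean transcript length weighted by the estimated abundance of each transcript. For Cxcl12 it was 2181 and 2198 bases in basal control KD and 2014 and 1995 bases in basal GSTM1 KD. After TNF-α it was 2541 and 2653 bases under control KD and 2139 and 2111 bases in GSTM1 KD. The GSTM1 KD mean was shorter, differing by -185 bases (-8.44%) in unstimulated cells and by -472 bases (-18.2%) after TNF-α, and the mean was longer after TNF-α by 407 bases (18.6%) under control KD and by 120 bases (5.99%) in GSTM1 KD. No groups overlapped, as for 35% of 12553 genes with more than 1 transcript in unstimulated cells and 35.2% after TNF-α for the knockdowns, and 28.9% and 29.1% for the TNF-α responses under control KD and GSTM1 KD.

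The annotation holds 4 Cxcl12 transcripts, all of them in the tables: Cxcl12-202 of 1878 bases, the retained-intron transcript Cxcl12-204 of 2894 bases, Cxcl12-203 of 3132 bases and Cxcl12-201 of 5627 bases. The mean lengths lie above the shortest, and the share of each transcript was not analysed here. For Cx3cl1, Adam10 and Adam17 the mean length changed by at most 3.12% in any of the 4 comparisons. Since TPM is scaled by length, the Cxcl12 difference was larger in TPM: 19.7 and 12.1 TPM in basal control KD against 31.5 and 32.6 TPM in basal GSTM1 KD, and 23.3 and 15.9 TPM against 36.9 and 41.4 TPM after TNF-α. With the effective transcript lengths as offsets in edgeR the log2 difference was 0.96 (adjusted p = 0.0646) in unstimulated cells and 0.94 (adjusted p = 0.0345) after TNF-α.

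**Figure D3:**
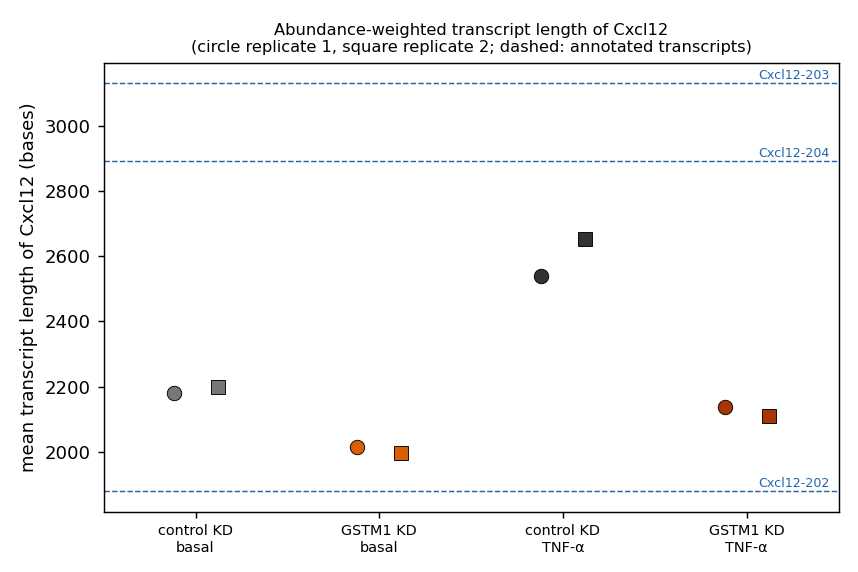
Mean transcript length of Cxcl12 in bases (y axis, not from 0) in each library of the 4 groups. Dashed lines mark 3 of the 4 annotated transcripts, and the longest, of 5627 bases, lies above the range shown. The control KD libraries move from 2181 and 2198 to 2541 and 2653 bases with TNF-α, and the GSTM1 KD libraries lie between 1995 and 2139 bases.

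The genes whose levels were most like each of the 4 were found from the Pearson correlation of log2 CPM over the 8 libraries, which include the groups themselves, among 15332 genes. For Cx3cl1 they were Icosl, an inducible costimulator ligand (r = 0.990), Il15ra, a receptor chain for IL-15 (r = 0.988), and Bhlhe40, a transcription factor (r = 0.987). Icosl had 3.65 to 4.77 CPM in basal control KD and 5.28 to 6.66 CPM in basal GSTM1 KD, and 26.0 to 33.9 CPM against 21.5 to 24.4 CPM after TNF-α. The Il15ra means were 2.13 and 3.21 CPM in basal control KD and GSTM1 KD, and 11.0 and 10.9 CPM after TNF-α. Those of Bhlhe40 were 111 and 116 CPM, then 139 and 138 CPM, a far narrower range than that of Cx3cl1. The correlation does not compare the size of changes. For Adam10 they were Cluap1, a ciliary transport gene (r = 0.993), Agbl5 (r = 0.993) and Fam81a (r = 0.993), and Fam81a had 28.3 and 49.3 CPM in basal control KD and GSTM1 KD. For Adam17 they were Hltf, a chromatin remodelling gene (r = 0.962), Igfbp5, an IGF-binding protein gene (r = 0.959), and Stra6 (r = 0.947), whose group means ran from 0.708 to 1.24 CPM. For Cxcl12 they were Szrd1 (r = 0.989), Nr1d2, a circadian nuclear receptor gene (r = 0.978), and Ube2g2, a ubiquitin-conjugating enzyme gene (r = 0.976).

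Between the 4 genes themselves the correlations over the 8 libraries were lower. The r of Cx3cl1 was -0.09 with Adam10, 0.56 with Adam17 and 0.59 with Cxcl12, and that of Adam10 was 0.27 with Adam17 and 0.35 with Cxcl12. The r of Adam17 with Cxcl12 was 0.05. These describe 8 libraries in 4 groups and carry no test.

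Among the receptors, the fractalkine receptor gene Cx3cr1 had 0 to 9 counts per library (0 to 0.323 CPM) and was not tested, while Ackr3 was lower in GSTM1 KD. Ackr3, the scavenging receptor of CXCL12, had 25.1 and 31.3 CPM in basal control KD and 12.1 and 11.9 CPM in basal GSTM1 KD. After TNF-α it had 26.7 and 32.2 CPM against 15.7 and 18.0 CPM. The groups did not overlap in either state, as for 63.5% and 66.6% of all genes tested. The log2 difference was -1.24 (SE 0.163, adjusted p = 0.0203) and -0.83 (SE 0.153, adjusted p = 0.0271). Cxcr4, the signalling receptor, differed by 0.14 (SE 0.283) and 0.16 (SE 0.241) between the knockdowns and did not pass. Its TNF-α response was -0.86 (SE 0.308, adjusted p = 0.286) under control KD and -0.81 (SE 0.308, adjusted p = 0.370) in GSTM1 KD. Of the proteases known to trim CXCL12, Mmp2 and Mmp14 did not pass in any comparison and Dpp4 had at most 2 counts in a library.

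Partners that carry or mature ADAM10 and ADAM17 changed in both directions. Of 11 listed genes 10 were tested. In unstimulated cells 1 was higher and 4 were lower in GSTM1 KD (median -0.47, against -0.002 over all genes), and after TNF-α 3 were higher and 2 lower (median -0.37, against -0.01). Over all genes 4.6% were called higher and 5.62% lower in unstimulated cells, and 7.26% and 8.92% after TNF-α. Furin, the convertase that removes the ADAM prodomain, was higher by 0.57 (SE 0.125, adjusted p = 0.0474) and 0.58 (SE 0.119, adjusted p = 0.0341). The tetraspanins that escort ADAM10 split: Tspan14 was lower by -1.51 (SE 0.147) and -1.73 (SE 0.155) and Tspan17 by -0.85 (SE 0.183) and -0.78 (SE 0.161), while Tspan5 (0.57, SE 0.118) and Tspan15 (0.62, SE 0.143) were higher after TNF-α, all past the threshold.

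The iRhom genes and Frmd8 act with ADAM17. In basal GSTM1 KD Rhbdf2, which encodes iRhom2, the escort of ADAM17, was lower by -1.39 (SE 0.239, adjusted p = 0.0296), and Frmd8, which stabilises the iRhoms, by -0.61 (SE 0.132, adjusted p = 0.0453). Rhbdf1, which encodes the related iRhom1, differed by -0.32 (SE 0.122, adjusted p = 0.144) and did not pass. After TNF-α Rhbdf2 and Frmd8 differed by -0.83 (adjusted p = 0.0975) and -0.55 (adjusted p = 0.0607), not past the threshold. Rhbdf2 was the only gene of the 10 that passed for the TNF-α response, in which 2.63% and 2.65% of all genes passed, and it rose by 1.52 (SE 0.252, adjusted p = 0.0273) under control KD and by 2.11 (SE 0.278, adjusted p = 0.0102) in GSTM1 KD.

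Of the 4 TIMP genes, which encode metalloprotease inhibitors, 2 were lower and none higher in basal GSTM1 KD (median -0.58), and 2 were lower and 1 higher after TNF-α (median -0.58). Of all genes 5.62% were lower and 4.6% higher in the first comparison, and 8.92% and 7.26% in the second. Timp3, which encodes the TIMP known to inhibit ADAM17, had 1427 and 1542 CPM under control KD and 2020 and 2018 CPM in GSTM1 KD in unstimulated cells, and 905 and 899 CPM against 1530 and 1482 CPM after TNF-α. The groups did not overlap in either state, as for 63.5% and 66.6% of all genes tested. The Timp3 difference was 0.44 (SE 0.129, adjusted p = 0.0848) and 0.71 (SE 0.115, adjusted p = 0.0205). Timp3 fell with TNF-α in control KD by 0.72 (SE 0.0926, adjusted p = 0.0107), and its response in GSTM1 KD was -0.42 (SE 0.0926, adjusted p = 0.0727). Timp1, which encodes an inhibitor of ADAM10, was lower by -1.57 (SE 0.253, adjusted p = 0.0277) and -1.57 (SE 0.179, adjusted p = 0.0122). Timp4 was lower by -1.20 (SE 0.176, adjusted p = 0.0234) and -1.17 (SE 0.189, adjusted p = 0.0205), and Timp2 differed by 0.05 and 0.01.

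Other ADAM protease genes were tested for 5 of 7 listed. In both states 2 were lower and none higher in GSTM1 KD, with medians of -0.58 and -0.51 over the list, where 5.62% and 8.92% of all genes were lower. They were Adam12 (-0.58, SE 0.105 and -0.51, SE 0.0935) and Adam19 (-1.14, SE 0.180 and -1.39, SE 0.126). Adam8, Adam9 and Adam15 did not pass. All 7 genes of the γ-secretase complex, which cleaves the membrane stub left after shedding, were tested, and 1 passed in each state (medians 0.19 and 0.18), near the share of all genes called in either direction (10.2% and 16.2%). This was Psen2, which encodes a catalytic presenilin, higher by 0.67 (SE 0.135, adjusted p = 0.0403) and 0.55 (SE 0.129, adjusted p = 0.0438).

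Other proteins that these ADAMs shed gave a wider view of the substrates. Of 25 listed genes 23 were tested in unstimulated cells, where 2 were higher and 6 lower in GSTM1 KD (median -0.33), where 4.6% and 5.62% of all genes were called. After TNF-α 22 were tested, with 2 higher and 7 lower (median -0.28), against 7.26% and 8.92% of all genes. Tnf, the substrate from which ADAM17 has its other name, had 0 to 17 counts in a library. The 2 higher genes were the same in both states: Il6ra, the IL-6 receptor chain (1.33, SE 0.245 and 1.76, SE 0.330), and App, the amyloid precursor (0.86, SE 0.186 and 0.77, SE 0.172). Those lower in both were Hbegf, Ereg, Icam1, Axl and Cd44, with Ereg, an EGF receptor ligand, at -1.69 (SE 0.304) and -1.98 (SE 0.161). Tnfrsf1b was lower in unstimulated cells only and Cxcl16 and Tgfa after TNF-α only, which is no test of a difference between the states.

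**Figure D4:**
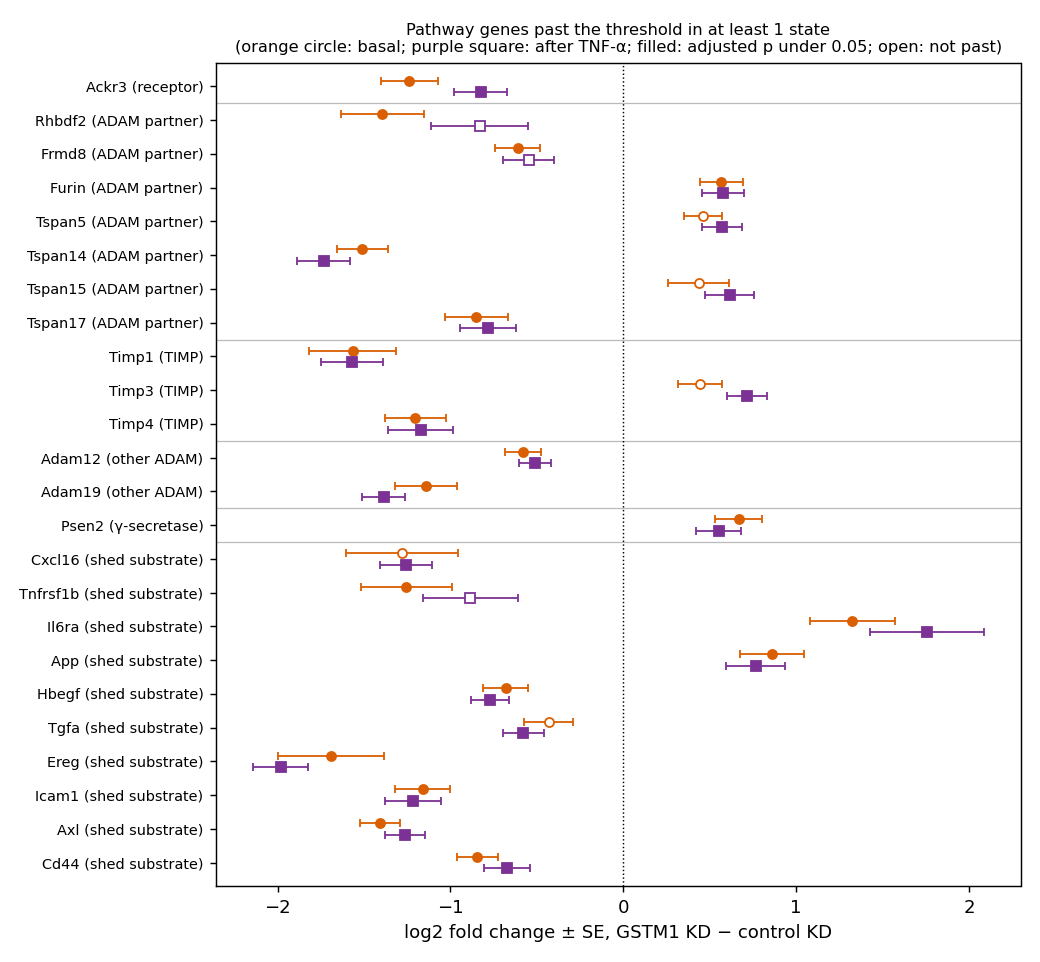
Log2 fold changes with standard errors between GSTM1 KD and control KD (x axis) for the pathway genes that passed the threshold in at least 1 state. Circles are the basal level, squares are after TNF-α, filled symbols passed the threshold and open ones did not. Each gene lies on the same side of 0 in both states, from Ereg at -1.98 to Il6ra at 1.76 after TNF-α.

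Cxcl16 encodes the other chemokine with a membrane anchor, and it is cut by the same proteases as CX3CL1. It rose with TNF-α by 3.44 (SE 0.227, adjusted p = 0.000992) under control KD and by 3.49 (SE 0.260, adjusted p = 0.00121) in GSTM1 KD. Between GSTM1 KD and control KD it differed by -1.28 (SE 0.324, adjusted p = 0.0642) in unstimulated cells and was lower by -1.26 (SE 0.149, adjusted p = 0.0129) after TNF-α. The Cx3cl1 differences in the same order were 0.71 and -0.24. In each knockdown 5 of 23 shed substrates rose with TNF-α and none fell: Cxcl16, Vcam1, Icam1, Sdc4 and Cd44, with Icam1 rising by 3.71 (SE 0.160) and 3.67 (SE 0.166). Of all genes 2.1% rose and 0.528% fell under control KD, and 2.35% and 0.294% in GSTM1 KD. All 5 NF-κB target genes listed as a check of the stimulus (Nfkbia, Tnfaip3, Nfkb2, Relb and Birc3) also rose in both knockdowns, with a median of 2.61 under control KD and of 3.54 in GSTM1 KD, and Tnfaip3 and Birc3 were lower in GSTM1 KD in both states.

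The pathway calls between the knockdowns rested on both GSTM1 KD libraries. Most calls over all genes were lost in the same fits, so this does not set the pathway genes apart. Of 19 pathway genes called in unstimulated cells, all 19 were called without either control KD library, and 0 without either GSTM1 KD library. Of 21 called after TNF-α, 20 and 21 were called without a control KD library, and 0 and 2 without GSTM1 KD replicate 1 or 2. All kept their direction in each of these fits, in which the group with 1 library is assumed to vary like the other. Of the pathway calls for the TNF-α response, 3 to 7 of 7 held under control KD and 3 to 6 of 6 in GSTM1 KD when 1 of the 8 libraries was left out. Cxcl16, Vcam1 and Icam1 held in each such fit, while Cd44, Sdc4, Rhbdf2 and Timp3 did not.

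Markers of other cell types moved with the knockdown beside these genes. The mural marker list summed to 3320 to 3689 CPM in basal control KD and 1650 to 1977 CPM in basal GSTM1 KD, and to 2817 to 2917 CPM against 1444 to 1730 CPM after TNF-α. This is mostly Acta2, the smooth-muscle actin gene, which was lower by -1.02 (SE 0.165) and -0.93 (SE 0.151), while Pdgfrb, a pericyte receptor, was higher by 0.81 (SE 0.165, adjusted p = 0.0337) after TNF-α. The fibroblast list summed to 258 to 426 CPM in basal control KD against 141 to 256 CPM in GSTM1 KD, and to 244 to 413 CPM against 148 to 260 CPM after TNF-α. Of it Col1a2 was lower in both states (-1.13, SE 0.211 and -0.99, SE 0.173), and Col1a1 did not pass. The endothelial list summed to 17.5 to 18.7 CPM in basal control KD against 9.14 to 12.2 CPM in GSTM1 KD, and to 20.2 to 25.4 CPM against 12.7 to 17.6 CPM after TNF-α. None of its genes passed: Flt1 differed by -0.91 (SE 0.269) and -0.76 (SE 0.341), Cdh5 by -1.65 (SE 0.513) and -1.41 (SE 0.534), and Kdr by 1.39 (SE 0.488) and 1.25 (SE 0.350). Neuronal markers summed to 164 to 220 CPM, with Snap25 too low to test and Tubb3 not past. Of the 9 astrocyte markers S100b alone passed, lower in GSTM1 KD by -1.44 (SE 0.232) and -1.71 (SE 0.372), while Gfap differed by 1.10 (SE 0.550) and 1.08 (SE 0.547). Oligodendrocyte-lineage markers summed to 174 to 223 CPM in basal control KD against 144 to 154 CPM in GSTM1 KD, and to 175 to 223 CPM against 148 to 170 CPM after TNF-α, with Olig2 lower in both states. Choroid plexus markers summed to 0.508 to 0.509 CPM against 2.06 to 3.15 CPM, and to 0.258 to 0.722 CPM against 1.75 to 2.76 CPM, with Folr1 higher in both. Folr1, with 3 to 55 counts per library, was the only 1 of these 4 markers tested. The other 3 had a mean of at most 3 counts, so these sums mostly describe Folr1. Ependymal markers summed to 114 to 173 CPM against 144 to 157 CPM, and to 98.8 to 118 CPM against 132 to 144 CPM, with none past. With TNF-α Pdgfrb was lower under control KD (-1.28, SE 0.213, edgeR adjusted p = 0.0278) and Olig2 in GSTM1 KD (-0.67, SE 0.116, edgeR adjusted p = 0.0310). Neither of them passed for the response in the other knockdown. The part of any of these cells in the values of the 4 genes was not tested.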

How the data were processed

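Total RNA of 8 astrocyte samples was sequenced by the authors as directional, paired-end libraries. Per the submitters' processing notes, reads were mapped to GRCm38 with STAR (version 2.5.4b) and quantified with RSEM (version 1.3.0), and the strand setting and annotation are not given in the sources used here. The expected counts deposited by the authors are estimates per gene from RSEM, not normalized. They were rounded to whole numbers here. The deposited TPM values are scaled per transcript length by the authors' RSEM run, and the deposited mean and effective lengths, in bases, are weighted by each transcript's estimated abundance.

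TMM factors (0.958 to 1.03), the filterByExpr filter and the quasi-likelihood F-test came from edgeR (version 4.0.16, R version 4.3.3), with Benjamini-Hochberg adjustment over all genes tested and a threshold of 0.05. The knockdowns were compared within each state, on its 4 libraries. The TNF-α responses and their difference used all 8 libraries. Standard errors are from the model. An exact permutation test of 2 against 2 libraries cannot reach 0.05 and was not used. The study's tool was DESeq2, which was used here (version 1.42.0) as an alternative. A count of 3 corresponds to 0.0848 to 0.180 CPM. Correlations used log2 CPM with a prior count of 2. The scripts were tested on simulated data.

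The members, gene lists and tests were chosen with earlier results of these data known. Genes named are the 4 members, Gstm1, list genes past the threshold, receptors, TIMPs and defining cell type markers, and the 3 genes most correlated with each member. Exceptions, chosen after their values were seen, are the list genes Rhbdf1, Mmp2, Mmp14, Dpp4, Adam8, Adam9, Adam15 and Tnf. Replicates of a group differed by more than sampling noise, by a variance ratio of 13.8 to 55.4. Promoter sequences are from RefSeq.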

Additional observations from a re-analysis of the deposited data

Results flagged for a closer look

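The Cx3cl1 estimates of GSTM1 KD against control KD had opposite signs in the 2 states. The libraries did not overlap in either, as for 63.5% and 66.6% of all genes tested. The log2 difference was 0.71 in unstimulated cells (95% interval 0.41 to 1.00). After TNF-α it was -0.24, with an interval from -0.52 to 0.04. These intervals take no account of the selection, so neither is read against 0. The difference between the states was not tested, because the gene was selected on these values.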

How the results depend on the processing

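Adam10, the only member past the threshold, was higher in stimulated GSTM1 KD in all alternatives tried. For Cx3cl1, whose direction was set by its selection, leaving out 1 library gave 0.60 to 0.80 in basal GSTM1 KD and -0.28 to -0.19 after TNF-α, with responses of 2.44 to 2.53 in control KD, 1.47 to 1.66 in GSTM1 KD and a difference of -1.01 to -0.83. Leaving out 1 library gave Adam10 0.20 to 0.66 at the basal level and 0.43 to 0.69 after TNF-α, and Cxcl12 0.49 to 1.20 and 0.40 to 0.87. Without the filter on low counts, Adam10 (0.39, adjusted p = 0.0442) and Cxcl12 (0.77) passed at the basal level, Cxcl12 (0.60) after TNF-α and Cxcl12 (0.56) for the response in control KD. With DESeq2, Cxcl12 passed in both states (0.80 and 0.61). With effective lengths as offsets Cxcl12 passed after TNF-α (0.94), and on log2(TPM + 0.1), with no test, its difference there was 1.02.

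The labels give each group replicates 1 and 2, and the deviations of same-numbered libraries correlated by 0.165 to 0.575 over the 6 pairs of groups. No source says that a number marks a shared culture, so the numbers were not taken as pairs. With the replicate block, Adam10 (0.44) and Cxcl12 (0.84) passed at the basal level and Cxcl12 (0.62) after TNF-α, and the counts of genes called became 4712 at the basal level, 4302 after TNF-α, 988 for the response in control KD and 808 in GSTM1 KD.

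Counts of genes called were 1524 and 2360 between the knockdowns, 403 and 406 for the responses and 0 for their difference. Without the filter they were 3957, 4540, 1255, 1050 and 134. DESeq2 gave 2494 at the basal level, 738 and 629 for the responses and 27 for their difference. All 8 libraries gave 2762 at the basal level, and only the 4 libraries of a knockdown gave 72 and 691 for the responses. When 1 library was left out, the counts ran from 1 to 5256, 0 to 5028, 180 to 313, 74 to 444 and 0 to 2. The count of 0 after TNF-α came without GSTM1 KD replicate 1, where edgeR gave 3273 genes an unadjusted p under 0.05. The cause of these changes was not tested. Cxcl12 had the lowest counts of the 4 genes, 352 to 884 per library, and Cx3cr1 and Dpp4 were too low to test.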
